A study of Mus musculus with 8 samples.

Results

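The 31 genes described here encode the enzymes and transporters through which mouse liver takes up, stores, burns and releases hexose sugars. They were chosen by function, with earlier results of these data known, and their symbols were matched to the Ensembl identifiers of the deposited tables. Of the 31, 30 were listed in each of the 2 tables, which together cover 24375 genes. The larger table gave an adjusted p for 30 members and the smaller for 29, where Slc2a2 had none. G6pdx was not analysed here.

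Liver is the main organ that both consumes and supplies blood glucose. After a meal, glucose is phosphorylated and sent into glycolysis, glycogen and the pentose phosphate pathway. In fasting, glycogen breakdown and gluconeogenesis run towards glucose 6-phosphate, which the ER enzyme glucose-6-phosphatase turns into free glucose. Most enzymes between triose phosphates and pyruvate serve both directions, so control lies at a few irreversible steps. Transcription of these steps is known to follow insulin, glucagon and the coactivator PGC-1alpha.

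The libraries came from mice lacking Cpeb4 (labelled Cpeb4 KO) and from wild-type mice. They form 4 groups of 2 libraries, namely knockout ER, wild-type ER, knockout total liver and wild-type total liver, where ER is RNA from endoplasmic reticulum purified from whole liver. Mice used for the ER preparations had been fasted overnight. The labels give neither the feeding state behind the total liver RNA nor the age, sex, strain or knockout allele, nor whether the 2 libraries of a group represent different mice. Cpeb4 encodes an RNA-binding protein that recognises U-rich cytoplasmic polyadenylation elements in the 3′ untranslated regions of mRNAs and acts on their poly(A) tails and translation.

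The values are those of the authors' own genotype comparison, in a larger table of 23634 genes and a smaller one of 21201. Because the tables do not state which of ER and total liver they describe, they are called by size alone. Each gives, per gene, a mean normalised count over all libraries of the comparison, the log2 fold change and its standard error (SE), and a Wald test p before and after adjustment. Values per library were not analysed here, so the spread between libraries is seen through the SE alone. The fold changes are moderated estimates, shrunken towards 0, and so understate the change. The targeted gene, Cpeb4 (ENSMUSG00000020300), had log2 fold changes of -1.16 ± 0.11 (SE) per the authors' deposited larger table and -1.10 ± 0.13 per the smaller (DESeq2 Wald test, adjusted p = 3.18e-24 and 2.30e-12). The tables do not write their direction, so a negative sign is read as lower in the knockout from this gene. Median log2 fold changes over all tested genes were 0.00 in both deposited tables. Hepatocyte markers such as Alb, Apoa1 and Ttr were abundant in both tables, and 0 of 7 tested markers passed in either, with 1 under an unadjusted p of 0.05 in each (DESeq2 Wald test).

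Among the members, 1 gene passed an adjusted p of 0.05, in the smaller table only, at the release of free glucose. G6pc, the catalytic subunit of glucose-6-phosphatase, was higher in the knockout, and its log2 fold change of 0.58 ± 0.13 in the authors' deposited smaller table passed the test over all genes (DESeq2 Wald test, adjusted p = 0.00614, 2 libraries a group). In the authors' deposited larger table its value was 0.25 ± 0.12 and did not pass (unadjusted p = 0.0323). G6pc was the 1 of 29 tested members called in the smaller table, against 0.266% of all tested genes. No member was called in the larger table, 0 of 30, against 0.296% of all tested genes. With 2 libraries a group, a member that was not called is not shown to be unchanged. Without correction, 5 of 30 members had a p under 0.05 in the larger table and 4 of 29 had one in the smaller, against 3.62% and 4.11% of all tested genes. In the larger table these were G6pc and Fbp1 above 0, against 1.63% of all tested genes in that direction, and Khk, Gbe1 and Pfkl below 0, against 2.00%. In the smaller table they were G6pc and Pgm2 above 0, against 2.14%, and Pfkl and Khk below 0, against 1.96%.

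The sites and upstream sequence of G6pc and Pck1 are shown because these genes stand at the exit and entry of gluconeogenesis and both carry the hexamer UUUUAU, a known form of the element that CPEB proteins bind, close to the end of their transcripts. Sequences come from GENCODE M21 transcripts (GRCm38), are written 5′ to 3′ on the transcript strand with T for U, and have the hexamer TTTTAT in capitals with up to 12 bases on either side.
G6pc, first site: ggagggagagtgTTTTATgtatcgagcaaa
G6pc, next to last site: acatgtgcagtaTTTTATtaaagcaacatt
G6pc, last site: attaaagcaacaTTTTATttaa
Pck1, first site: tgtttaaattatTTTTATacaccgcccttc
Pck1, last site: tacaaaataaacTTTTATagaaaaagtaga

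The last hexamer ended 4 bases before the annotated end of the G6pc transcript and 12 bases before that of Pck1. A hexamer near the end was not confined to these genes. The last ended 39 bases before the end in Taldo1, 54 in Tkt and 112 in Ldha. In Ugp2, Slc2a2, Pgam1, Gpi1 and Pck2 the distance was from 441 to 1099 bases. The hexamer is common, however. Of 29 measured members with an annotated 3′ untranslated region, 10 held it, among them Slc2a2 with 4 copies in 3883 bases. Of these, the 28 tested in both tables, which leave out Slc2a2, are set against all 10323 such genes. The hexamer occurred in 9 of the 28 members (32.1%) and in 53.1% of all genes. With TTTTAAT added, 12 of the 28 (42.9%) and 58.5% of all genes had at least 1 of these words. The untranslated regions of the 28 members were shorter, with a median of 478.5 bases against 937, and held 0.799 TTTTAT hexamers per kilobase against 1.02. Glucose-releasing members had the hexamer in 3 of 7 genes (G6pc, Pck1 and Pck2) and glucose-using members in 1 of 9 (Ugp2). With TTTTAAT added, the counts were 3 of 7 (42.9%) and 3 of 9 (33.3%). TTTTAAT alone occurred in 1 of 7 releasing and 2 of 9 using members. A match is a description of the sequence, and binding by Cpeb4 was not measured.

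The 250 bases before the RefSeq start (GRCm38.p6, plus strand) of G6pc, chr11:101367466-101367715, and of Pck1, chr2:173152823-173153072, follow, shown as the control regions of these genes. The GENCODE gene begins inside both windows. Capitals mark any of 5 searched motifs on either strand: TGACGTCA, the cAMP response element, its shorter core TGACG, the forkhead motifs GTAAACA and CAAAACA, and the E-box CACGTG.
G6pc: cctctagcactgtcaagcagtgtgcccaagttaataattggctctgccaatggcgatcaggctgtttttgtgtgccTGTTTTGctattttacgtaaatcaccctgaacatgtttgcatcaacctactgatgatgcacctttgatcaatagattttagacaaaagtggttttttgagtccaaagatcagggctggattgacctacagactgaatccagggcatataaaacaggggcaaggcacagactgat
Pck1: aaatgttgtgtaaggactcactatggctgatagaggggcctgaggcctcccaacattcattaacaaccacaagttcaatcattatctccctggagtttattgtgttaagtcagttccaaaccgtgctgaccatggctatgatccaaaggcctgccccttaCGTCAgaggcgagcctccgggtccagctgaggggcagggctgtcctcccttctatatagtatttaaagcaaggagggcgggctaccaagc

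In G6pc the capitals are the reverse complement of CAAAACA, beginning 174 bases before the start. In Pck1 they are the reverse complement of TGACG, beginning 90 bases before it. Windows of 300 bases (250 before and 50 after a start) were matched for 30 members, in 42 windows. TGACG, which every TGACGTCA also contains, occurred in 11 of the 42 (26.2%), against 20.8% of 32851 windows of all genes. CAAAACA occurred in 3 (7.14%), those of G6pc, Gckr and Pck2, against 6.28%. CACGTG occurred in 6 (14.3%) against 7.15%, TGACGTCA in 1 (2.38%) against 1.79%, and GTAAACA in 0 against 3.65%.

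**Figure D1:**
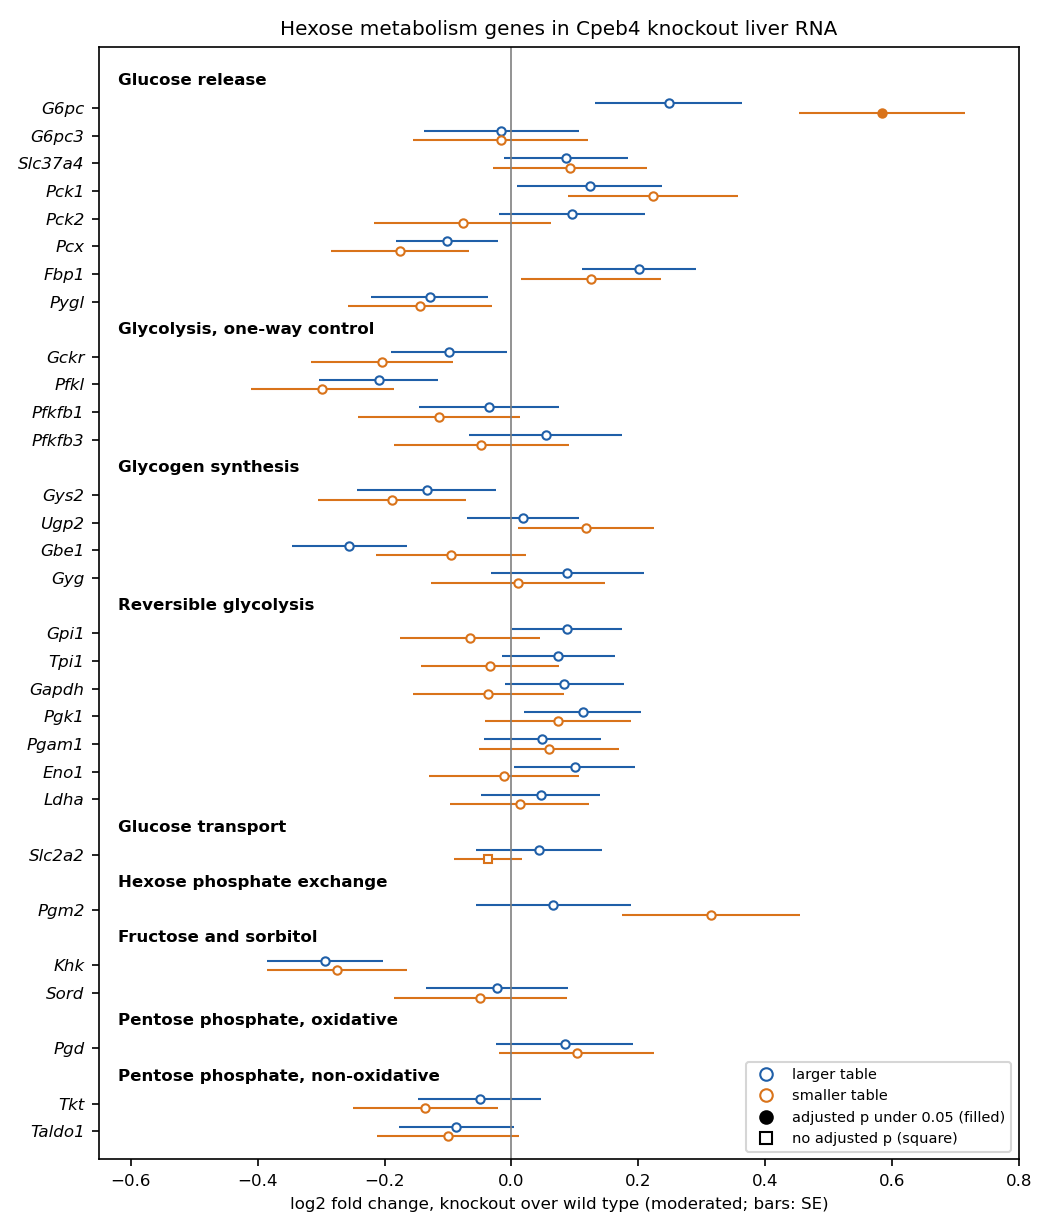
Log2 fold changes (knockout over wild type, x axis, bars ± SE) of the 30 measured members by role, in the larger table (blue) and the smaller table (orange); filled points passed an adjusted p of 0.05 and the square has none. G6pc in the smaller table, at 0.58, is the filled point, while Khk and Pfkl lie below 0 in both tables without passing.

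Among glucose-releasing genes, 5 of 8 lay above 0 in the larger table and 4 of 8 did in the smaller. Of all tested genes, 49.6% and 50.3% did. G6pc (GRCm38 chromosome 11, 101367561 to 101377903, plus strand) had a mean of 7179 normalised counts per the authors' deposited larger table and 3443 per the smaller. G6pc3, the ubiquitously expressed paralog, had means of 136 and 85.7 counts in the deposited tables and log2 fold changes of -0.02 ± 0.12 and -0.02 ± 0.14. The liver-type phosphatase was the more abundant of the pair, with 2974 counts per kilobase of exon against 61.3 in the larger table. Slc37a4, which carries glucose 6-phosphate into the ER for G6pc, had 0.09 ± 0.10 and 0.09 ± 0.12 in the authors' deposited tables.

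Pck1, the cytosolic PEPCK that commits oxaloacetate to gluconeogenesis (chromosome 2, 173153048 to 173159273), had the highest mean count of the members. It averaged 153694 counts per the authors' deposited larger table and 154489 per the smaller, with log2 fold changes of 0.12 ± 0.11 and 0.22 ± 0.13, neither past the test (unadjusted p = 0.278 and 0.0953). Its mitochondrial counterpart Pck2 was rare, at 73.0 and 111 counts, and had 0.10 ± 0.11 and -0.08 ± 0.14 in the deposited tables. Fbp1, the fructose bisphosphatase of gluconeogenesis, had 0.20 ± 0.09 in the authors' deposited larger table (unadjusted p = 0.0258) and 0.13 ± 0.11 in the smaller. The releasing group was not uniform, since other members lay below 0. Pcx, the mitochondrial pyruvate carboxylase that supplies oxaloacetate, had -0.10 ± 0.08 and -0.18 ± 0.11 in the authors' deposited tables. Pygl, the liver phosphorylase that frees glucose units from glycogen, had -0.13 ± 0.09 and -0.14 ± 0.11 in the same deposited tables.

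None of the 9 measured glucose-using members passed the test. Of these, 5 lay below 0 in the larger table and 6 did in the smaller, where 49.6% and 50.3% of all tested genes lay above 0. Pfkl, the liver phosphofructokinase that commits fructose 6-phosphate to glycolysis, had -0.21 ± 0.09 per the authors' deposited larger table and -0.30 ± 0.11 per the smaller (unadjusted p = 0.0257 and 0.00817, DESeq2 Wald test adjusted p = 0.603 in the smaller). Gckr, a regulatory protein of hepatic glycolysis, had -0.10 ± 0.09 and -0.20 ± 0.11 in the deposited tables. The bifunctional enzymes that set fructose 2,6-bisphosphate stayed near 0. Pfkfb1, the liver form, had -0.04 ± 0.11 and -0.11 ± 0.13 in the authors' deposited tables. Pfkfb3, the inducible form, was at 0.05 ± 0.12 and -0.05 ± 0.14 at means of 164 and 97.7 counts in those deposited tables.

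Glycogen synthesis genes lay on both sides of 0. Gbe1, the branching enzyme, had -0.26 ± 0.09 in the authors' deposited larger table (unadjusted p = 0.00457, DESeq2 Wald test adjusted p = 0.424) but -0.10 ± 0.12 in the smaller. Gys2, the liver glycogen synthase, had -0.13 ± 0.11 and -0.19 ± 0.12 in the authors' deposited tables. Ugp2, which makes the UDP-glucose that synthase uses, lay above 0 at 0.02 ± 0.09 and 0.12 ± 0.11 in the deposited tables. Glycogenin, encoded by Gyg, had 0.09 ± 0.12 and 0.01 ± 0.14 there. None of the 4 passed in either deposited table.

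Using and releasing genes were set against each other by their medians, as a description with no test. The using group includes Gckr, a regulatory protein, and the bifunctional Pfkfb1 and Pfkfb3, so not every using member is a one-way glucose-using enzyme. A lower value of these genes need not mean less use of glucose. In the larger table, using members had a median log2 fold change of -0.04 and releasing members one of 0.09, a difference of -0.13. In the smaller table the medians were -0.10 for using and 0.04 for releasing members, again a difference of -0.13. The medians over all tested genes were 0.00 in both tables. Without G6pc the smaller table's difference was -0.08, with a releasing median of -0.02. Whether the tables share mice is not stated, so the same sign in both is not independent evidence. Markers of Kupffer cells and macrophages lay below 0 beside these values, with 10 of 11 and 11 of 11 negative and medians of -0.10 and -0.13, and so did the 4 tested globin genes at medians of -0.30 and -0.40, with none past the DESeq2 Wald test. At an unadjusted p under 0.05 there were 0 and 2 of the 11 macrophage markers and 4 and 4 of the 4 globin genes. Among all tested genes, 3.62% and 4.11% had such a p, and 49.6% and 50.3% lay above 0. Sequence found in another annotated gene made up 75.5% of Hba-a1, 92.6% of Hba-a2, 54.4% of Hbb-bs and 59.4% of Hbb-bt. The counts of these globin genes are therefore uncertain and may not be 4 separate measurements. The part of the macrophage and globin genes in the contrast was not tested.

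**Figure D2:**
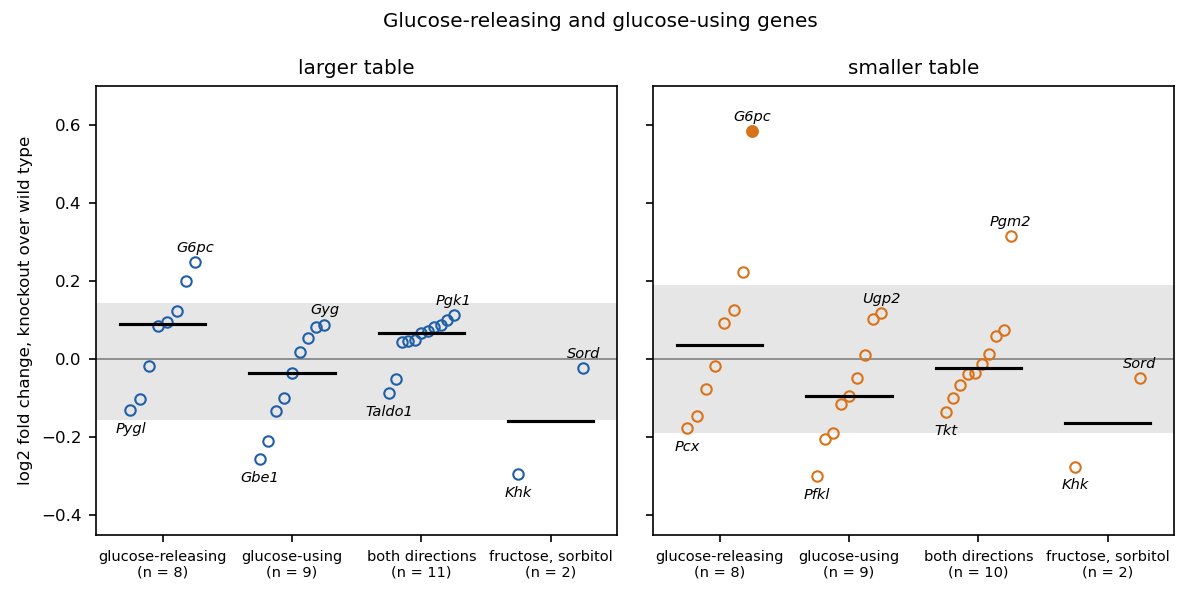
Log2 fold changes (knockout over wild type, y axis) of tested members by direction of the pathway, with the larger table on the left and the smaller on the right; black lines are group medians, the grey band holds the central 90% of all tested genes, and the filled point passed the test. Using members have medians of -0.04 and -0.10 and releasing members 0.09 and 0.04, with wide overlap.

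No reversible glycolytic enzyme passed the test. The group comprises Gpi1 (phosphoglucose isomerase), Tpi1 (triose phosphate isomerase), Gapdh, Pgk1 (phosphoglycerate kinase), Pgam1 (phosphoglycerate mutase), Eno1 (enolase) and Ldha (lactate dehydrogenase A). All 7 lay slightly above 0 in the larger table, from 0.05 to 0.11, and 3 of 7 did in the smaller, from -0.06 to 0.07. Of all tested genes, 49.6% and 50.3% lay above 0. No p among them was under 0.05 in either table, and the smallest was 0.221 for Pgk1. Several of these genes share sequence with other annotated genes, and their counts are uncertain. Shared words of 31 bases made up 54.7% of Pgk1, 37.1% of Pgam1, 28.5% of Eno1 and 28.1% of Gapdh.

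Neither fructose enzyme passed the test. Khk, ketohexokinase, which phosphorylates fructose, had -0.29 ± 0.09 per the authors' deposited larger table and -0.27 ± 0.11 per the smaller. Of the members it had the smallest p in the larger table (0.00133, unadjusted), yet its adjusted p values by the DESeq2 Wald test were 0.222 and 0.726. Sord, the sorbitol dehydrogenase that makes fructose from sorbitol, had -0.02 ± 0.11 and -0.05 ± 0.14 in the authors' deposited tables. Of its sequence words 35.9% occur in another gene, so its counts are uncertain.

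Pentose phosphate enzymes lay within 0.14 of 0. Pgd, the 6-phosphogluconate dehydrogenase of the oxidative branch, had 0.08 ± 0.11 and 0.10 ± 0.12 in the authors' deposited tables. Tkt (transketolase) had -0.05 ± 0.10 and -0.14 ± 0.11, and Taldo1 (transaldolase) -0.09 ± 0.09 and -0.10 ± 0.11, in the deposited tables. Pgm2, a minor phosphoglucomutase at 176 and 212 counts, had 0.07 ± 0.12 per the authors' deposited larger table and 0.31 ± 0.14 per the smaller (unadjusted p = 0.0250, DESeq2 Wald test adjusted p = 0.954). The symbols Pgm1 and Pgm2 have been exchanged between releases in mouse. The identifier ENSMUSG00000029171 carries Pgm2 here, and the abundant hepatic gene, Pgm1 here, had 12730 and 16680 counts with 0.03 ± 0.09 and -0.02 ± 0.11 in the authors' deposited tables.

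Levels between genes were compared as mean counts per kilobase of annotated exon. In the larger table Pck1 had 44822 counts per kilobase, followed by Fbp1 at 35879, Sord at 20985, Ldha at 19308 and Tpi1 at 10490. Phosphofructokinase and the enzymes that set its activator had lower levels there, at 259 counts per kilobase for Pfkl, 317 for Pfkfb1 and 21.7 for Pfkfb3. The order at the top differed in the smaller table. Fbp1 had 46459 counts per kilobase there, followed by Pck1 at 45054, Ldha at 33302, Sord at 21352 and Gapdh at 21184. Slc2a2, which encodes GLUT2, the glucose transporter of hepatocytes, had means of 37.7 counts per the authors' deposited larger table and 4.73 per the smaller, or 6.54 and 0.822 counts per kilobase. Its log2 fold change in the deposited larger table was 0.04 ± 0.10. No exon base of Slc2a2 overlaps another annotated gene, and 0.783% of its sequence words are shared, but how reads were counted is not given. The reason for so low a level of a hepatocyte transporter in these tables was not tested.

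Between the tables, the ratio of members' mean levels went with the location of their proteins. The smaller table's mean was divided by the larger table's, and the median of this ratio over 11604 genes tested in both was 0.838 (the tables were normalised separately). All 4 members that encode membrane proteins lay below that median, with ratios of 0.126 for Slc2a2, 0.480 for G6pc, 0.577 for Slc37a4 and 0.628 for G6pc3. Slc2a2 had no adjusted p in the smaller table and is outside those 11604 genes, which leave out genes of low mean. Of 24 members with cytosolic or nuclear proteins, 21 lay above it, with a median of 1.29. Among the other genes of hexose metabolism, all 11 with membrane or lumenal proteins lay below the median of all genes, as did 25 of 58 with cytosolic or nuclear proteins. Both sets include genes without an adjusted p in the smaller table, which are likewise outside the 11604. Protein location was assigned from textbook knowledge after the values had been seen, and these ratios are a description with no test. Gapdh, among the cytosolic members above the median of all genes, stood apart in size. It had 4321 counts in the authors' deposited larger table against 87554 in the smaller, a ratio of 20.3 that 7 of 11604 genes exceeded. The cause was not tested.

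**Figure D3:**
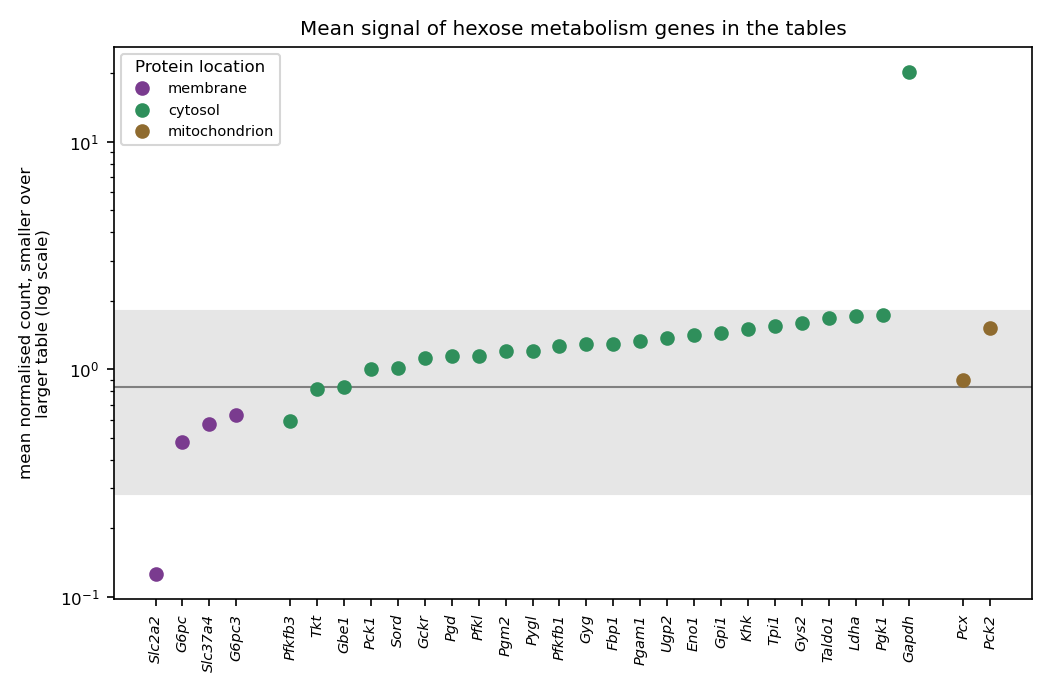
Mean normalised count of each measured member in the smaller table divided by that in the larger (y axis, log scale), by location of the protein; the grey line is the median of all genes tested in both tables (0.838) and the band their central 90%. The 4 membrane proteins lie from 0.126 to 0.628, and Gapdh stands apart at 20.3.

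No member passed a test of whether the genotype difference itself differed between the tables. A z statistic of the change in the smaller table less that in the larger was computed for 11604 genes, and 0 of 29 members passed, against 0.0172% of all genes. No member had an unadjusted p under 0.05 in that test, against 0.138% of all genes. For G6pc the difference was 0.34 ± 0.17 (SE, z test, unadjusted p = 0.0540, Benjamini-Hochberg adjusted p over all genes of 1.00), and its p ranked 17 among the 11604. The z values had an SD of 0.535 over all genes, so these p values are too large, and with z divided by that SD the adjusted p of G6pc was 0.217 (z test, Benjamini-Hochberg). Whether the change in G6pc differed between the tables was not settled by this test.

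Other genes of hexose metabolism, 92 in 7 lists, were examined beside the members, and an adjusted p was given for 85 of them in the larger table and for 77 in the smaller. In the larger table, 2 of the 85 were called higher and 1 lower, where 0.0917% and 0.205% of all tested genes were. Among the 77 of the smaller table, 3 were called higher, where 0.163% of all tested genes were. The lists were chosen with earlier results of these data known, so these counts are a description and no test of the lists. Tat, the tyrosine aminotransferase that feeds amino acid carbon into gluconeogenesis, rose by 0.70 ± 0.11 per the authors' deposited larger table and 0.72 ± 0.12 per the smaller (DESeq2 Wald test, adjusted p = 4.71e-07 and 5.31e-06). Got1, the cytosolic aspartate aminotransferase, rose by 0.54 ± 0.13 in the authors' deposited smaller table (DESeq2 Wald test, adjusted p = 0.0232) and had 0.25 ± 0.11 in the larger. In the gluconeogenesis list 9 of 11 tested genes lay above 0 in each table, with medians of 0.12 and 0.09. Of all tested genes, 49.6% and 50.3% lay above 0.

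Regulators were called in both directions. Ppargc1a, which encodes PGC-1alpha, a coactivator of G6pc and Pck1 transcription, rose by 0.51 ± 0.12 per the authors' deposited larger table and 0.67 ± 0.13 per the smaller (DESeq2 Wald test, adjusted p = 0.00648 and 0.000667). Srebf1, which encodes SREBP1, a mediator of insulin on glycolytic and lipogenic genes, fell, with -0.41 ± 0.11 in the authors' deposited larger table (DESeq2 Wald test, adjusted p = 0.0449) and had -0.32 ± 0.13 in the smaller. That call was lost with no filter on the mean (adjusted p = 0.0748). The other 19 tested regulators in each table did not pass.

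Pklr, the liver pyruvate kinase of the last irreversible step of glycolysis, had -0.33 ± 0.09 in the authors' deposited larger table, just short of the threshold (DESeq2 Wald test, adjusted p = 0.0502), and -0.27 ± 0.12 in the smaller. Pfkm, the muscle-type phosphofructokinase, had -0.16 ± 0.11 and -0.27 ± 0.13 in the authors' deposited tables and passed in neither.

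No gene of the remaining 4 lists passed the DESeq2 Wald test in either table, while 4 genes in the larger and 2 in the smaller had an unadjusted p under 0.05. Among all tested genes, 3.62% and 4.11% had one. Each list held 1 of the 4 in the larger table, where 10 pyruvate dehydrogenase, 15 glycogen, 9 hexose entry and 4 pentose phosphate genes were tested. In the smaller table they were 1 of 13 glycogen and 1 of 8 hexose entry genes. None was among 9 pyruvate dehydrogenase or 4 pentose phosphate genes. The gene with the largest statistic was the same in both tables for each list. Ppp1r3b, which targets protein phosphatase to glycogen in liver, had -0.31 ± 0.10 and -0.24 ± 0.12 in the authors' deposited tables. Tkfc, the triokinase of fructose breakdown downstream of Khk, had -0.19 ± 0.08 and -0.29 ± 0.11 in the deposited tables. H6pd, the hexose-6-phosphate dehydrogenase of the ER lumen, was at -0.20 ± 0.09 and -0.15 ± 0.11 per the authors' deposited tables. Pdk4, a fasting-induced kinase that inhibits pyruvate dehydrogenase, had 0.27 ± 0.12 and 0.21 ± 0.14 in the authors' deposited tables.

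**Figure D4:**
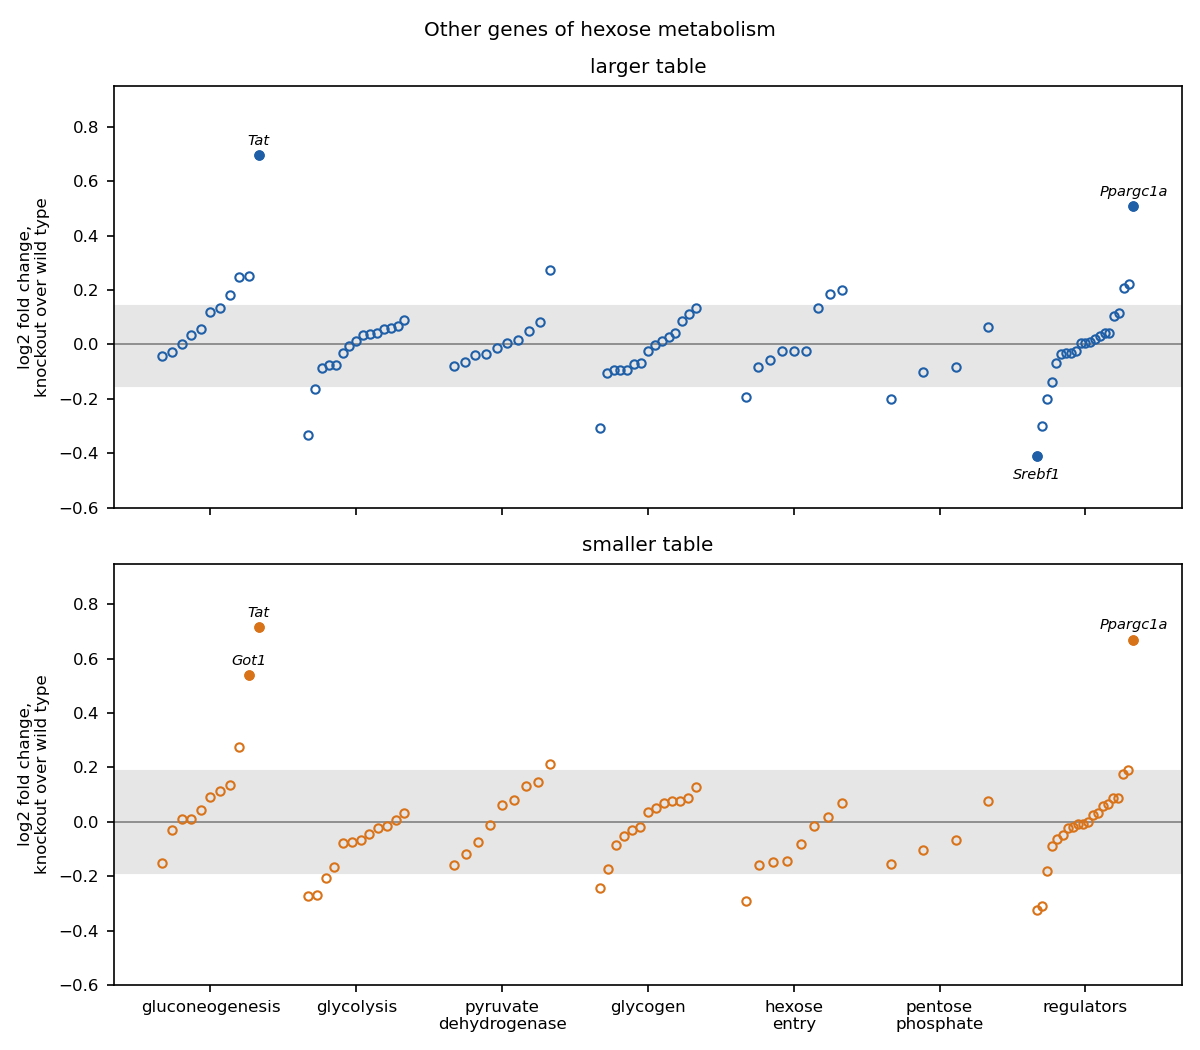
Log2 fold changes (knockout over wild type, y axis) of the tested genes reported here outside the members, by list, with the larger table above and the smaller below; the grey band holds the central 90% of all tested genes and filled, named points passed an adjusted p of 0.05. Tat and Ppargc1a are called in both panels, Srebf1 in the larger and Got1 in the smaller.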

How the data were processed

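RNA from total liver and purified ER of knockout and wild-type mice was sequenced, and 8 libraries are labelled. Per the submitters' processing notes, the tools were STAR 2.3.0e and DESeq2 1.6.3, with build mm10. Not given in the sources used here are the annotation, the counter, its use of strand and its treatment of multiply mapped reads. Per the file headers, the authors deposited a mean signal (counts divided by size factors, averaged over libraries), a log2 fold change with its SE, a Wald score, a p-value and an adjusted p-value for each gene. No count per library was used, so the authors' Wald test stands as the test, and genes without an adjusted p (9454 and 9540, all of low mean) were left out of tests. The lowest means with one were 17.4 and 31.9 counts. The median SE was 0.107 and 0.128, and the smallest absolute Wald statistic among genes called by the authors' adjusted p was 3.80 and 3.84. Means summed to 37351703 and 36848665 counts, and steps of the lowest means give relative library depths from 0.717 to 1.26 and from 0.839 to 1.64. P-values measure the spread between labelled libraries, which may be technical.

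Gene names, exons and sequences came from GENCODE M21 (GRCm38, the assembly that mm10 names) and RefSeq promoters (GRCm38.p6). Identifiers matched for 23484 of 23634 and 21080 of 21201 genes. Shared sequence is the share of a gene's 31-base words found in another annotated gene, on either strand. The 3′ untranslated region is that of the protein-coding transcript with the longest coding sequence. The test of the difference between tables divides the difference of log2 fold changes by the root of the summed squared SEs and treats the tables as independent. The z values had an SD of 0.535, below the 1 that this test assumes. Using members are Gckr, Pfkl, Pfkfb1, Pfkfb3, Gys2, Ugp2, Gbe1, Gyg, G6pdx and Pgd, and releasing members are G6pc, G6pc3, Slc37a4, Pck1, Pck2, Pcx, Fbp1 and Pygl. Named genes are all members, and, among the genes of the other lists reported here, every called gene and the one of each list with the largest absolute Wald statistic; Pgm1 was named after its values were seen. Of the wider lists, 2 genes are not reported here; they were left out after their values had been seen, and counts over those lists do not hold them. The members and lists were chosen with earlier results of these data known. Akr1b3, Glyctk, Galt and Txnip were not analysed here. Python 3.11.15 with pandas 2.3.3, numpy 2.4.6, scipy 1.17.1 and matplotlib 3.10.9 was used.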

Additional observations from a re-analysis of the deposited data

How the results depend on the processing

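The count of members called was 0 in the larger table and 1 (G6pc) in the smaller under all 4 alternatives run: no filter on the mean, a mean of at least 100 counts, a threshold of 0.1, and genes sharing over 25% of their words left out. The adjusted p of G6pc in the smaller table ranged from 0.00509 to 0.0102. No member passed the test between tables under its 3 alternatives; dividing z by its SD of 0.535 gave G6pc an adjusted p of 0.217. The median of using minus releasing members kept its negative sign in every setting run. Leaving out members without an adjusted p, or members sharing sequence, removed no using or releasing member, so those settings could not change it. In the smaller table it was -0.25 for the members of one-way glycolytic control (Gckr, Pfkl, Pfkfb1 and Pfkfb3) against gluconeogenesis without Pygl. Gckr is a regulatory protein and Pfkfb1 and Pfkfb3 are bifunctional, so lower values of these need not mean less use of glucose. Without G6pc the median difference in the smaller table was -0.078. The setting without G6pc was chosen after seeing the data. Pklr in the larger table passed at a mean of at least 100 (adjusted p = 0.0452), without genes sharing sequence (0.0476) and at the threshold of 0.1. No paired analysis was possible because the deposited tables hold no values per library, and for the same reason no library could be left out. With 2 libraries a group, genes called by the authors' adjusted p at 0.05 had absolute Wald statistics of at least 3.80 (larger table) or 3.84 (smaller table).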
